A study of Mus musculus with 2 samples.

Results

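The regions described here are strong CTCF peaks of mouse embryonic stem cells (ESC) that had no counterpart in neural precursor cells (NPC). They were chosen from the authors' 2 peak lists. A member is an autosomal ESC peak with a score above the median of the whole ESC list (517) and with no NPC peak within 1 kb of either edge. Of the 54151 ESC peaks, 1207 met these conditions. Both conditions are measured values, so the scores of the members and their lack of an NPC peak describe the choice and carry no test. Background for the count is that 23.8% of the 52656 autosomal ESC peaks, and 4.53% of the 26668 autosomal ESC peaks above the median score, had no NPC peak within 1 kb.

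CTCF is a zinc-finger protein that binds DNA at a long motif and stops the loop-extruding cohesin complex, so that its sites mark many chromatin loop anchors and domain boundaries. Most CTCF sites are occupied in many cell types, and the part that differs between cell types is known to depend in places on DNA methylation at the motif and on local chromatin. Clustered gene families, the protocadherins among them, are known for arrays of neighbouring CTCF sites.

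The ESC were E14Tg2A cells (IB10), grown in BRL-conditioned medium with fetal calf serum and leukemia inhibitory factor (LIF). The NPC were derived from E14 ESC and grown on gelatin in DMEM/F12 with N2 supplement, basic FGF and EGF. The labels name no genetic change or treatment beyond these culture conditions, and the same anti-CTCF antibody served both samples. There was 1 library per cell type, so the spread between cultures is unknown and no comparison below has a replicate check or a p-value. Peak lists carry no expression, so the cell labels could not be checked against markers.

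The lists hold a start, an end and a score per peak on mm9, and no read counts, so the depth behind a peak is unknown. A site absent from the NPC list may have been bound below the calling limit, which cannot be told apart here from an unbound site. The score is the authors' value, is not defined in the files, and is used only to rank peaks within a list. No mm9 sequence or gene annotation was used here, so regions are named by position, with no gene, exon or motif assigned.

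Every strong autosomal ESC peak can be accounted for. Besides the 1207 members, 25353 overlapped an NPC peak by at least 1 bp, and 108 had an NPC peak inside 1 kb without overlap. These 108 belong to neither class. The comparison class is the 25008 overlapping peaks that scored no higher than the highest member (2801), called shared peaks here. The other 345 overlapping peaks scored above every member. A further 11302 autosomal ESC peaks without an NPC peak within 1 kb had scores at or below the median, so the members are 9.65% of all autosomal ESC-only peaks.

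The members crowd toward the lower end of the chosen range. Their median score was 674 (interquartile range 582 to 830), and 152 of them (12.6%) scored above 1000, compared with 54.6% of the shared peaks. Only 28 scored above 1500. Because score and width move together, the shared peaks were weighted to the members' scores over 10 bins that held nearly equal numbers of members. After weighting, the median score of the shared peaks was 673, and all values for shared peaks below are weighted in this way unless stated. Intervals in parentheses are 95% intervals over peaks. They cover counting error only, and where neighbouring peaks are counted more than once they are too narrow.

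At each limit of the rule, members and non-members had nearly equal values. The 3 members with the lowest scores had 517.34 (chromosome 6, 146562330 to 146562921), 517.52 (chromosome 2, 127589757 to 127590371) and 517.68 (chromosome 12, 20821769 to 20822291). The ESC-only peaks just below the median had 516.54 (chromosome 12, 3960529 to 3961110), 516.11 (chromosome 10, 97030267 to 97030826) and 516.11 (chromosome 1, 53763030 to 53763589). The members nearest to an NPC peak lay 1019 bp away on chromosome 7 (20325577 to 20326258), 1020 bp away on chromosome 1 (34542498 to 34543244) and 1021 bp away on chromosome 5 (28013841 to 28014340). Just inside the limit were peaks 992 bp away on chromosome 18 (60932214 to 60932763), 986 bp away on chromosome 4 (3761029 to 3761720) and 985 bp away on chromosome 19 (36812426 to 36813102).

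The median width of members was close to that of shared peaks of like score, and slightly more members were very wide. The median width of the members was 624 bp (618 to 628; interquartile range 568.5 to 687), against 625 bp (interquartile range 567 to 688) in the shared peaks. The difference of -1 bp left out 0 in other settings, at -5 bp (-11 to -1) with 5 score bins and -6 bp (-9 to -4) when only NPC peaks above the NPC median counted. Without weighting the shared median was 681 bp, a gap of 57 bp that follows the higher scores of that class. Across the 10 score bins the member median was lower in 6 and higher in 4. The gap ran from 23 bp narrower to 19 bp wider, and the intervals of the classes were apart in 1 bin, the highest, with 706 bp (683 to 723) in members and 729 bp (726 to 731) in shared peaks. That bin runs from a score of 1057 to 2801, and it holds 121 members and 12456 shared peaks, so scores within it need not be alike.

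**Figure D1:**
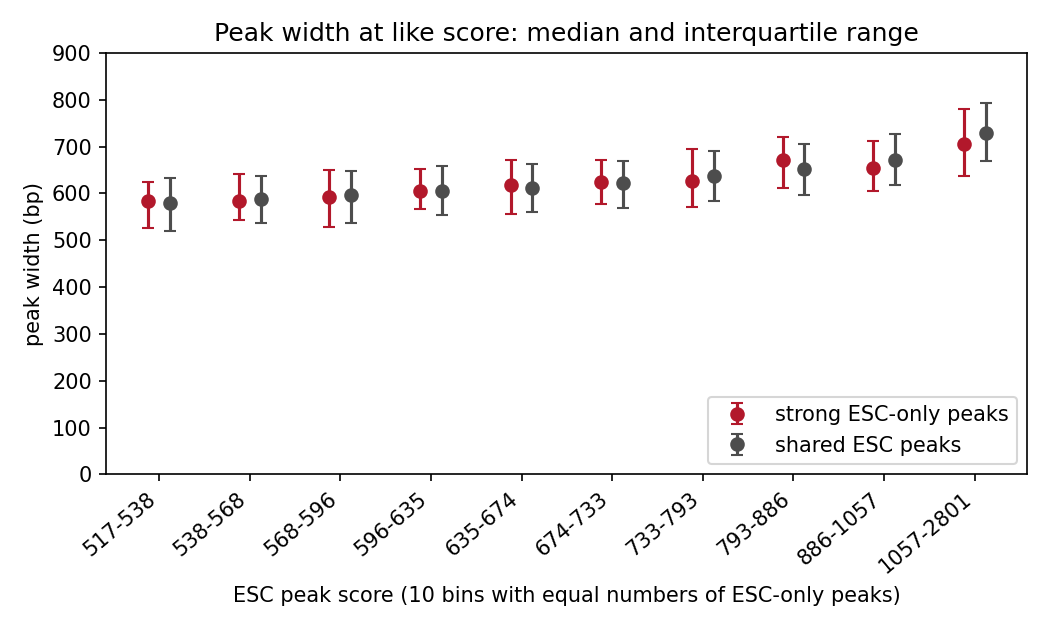
Median peak width in bp (points) with the interquartile range (bars) in 10 score bins, for strong ESC-only peaks (red) and shared ESC peaks (grey). Median widths are 584 and 579 bp in the lowest bin and 706 and 729 bp in the highest. The shared medians rise at every step and the member medians do not, and the ranges overlap in every bin.

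Width varied among the members with their score. Spearman's rho between score and width was 0.38 over the 1207 members and 0.56 over the unweighted shared peaks; both are descriptions across peaks of 1 library. Most members, 1112 (92.1%), were wider than 500 bp. Those wider than 800 bp numbered 75 (6.21%, 4.92 to 7.73), against 4.83% of the shared peaks, and 19 (1.57%, 0.95 to 2.45) were wider than 1000 bp, against 0.926%. The 3 widest were 1413 bp on chromosome 18 (37089402 to 37090814, score 2801), 1274 bp on chromosome 6 (34930599 to 34931872, score 805) and 1250 bp on chromosome 6 (86690374 to 86691623, score 977). The widest member therefore also had the highest score, whereas the next 2 were nearer to the member median of 674. The 3 narrowest were 328 bp on chromosome 15 (102588158 to 102588485), 337 bp on chromosome 12 (20948822 to 20949158) and 363 bp on chromosome 11 (68993651 to 68994013), with scores of 533, 531 and 630.

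Most members lay near other CTCF sites of both cell types. The nearest NPC peak was a median of 10652 bp away (9807 to 11610; interquartile range 4255.5 to 23483). The rule keeps members over 1 kb from any NPC peak, so the same floor was set for shared peaks by taking their nearest NPC peak over 1 kb away. That distance was a median of 9737 bp, 915 bp shorter than in members and just below the member interval. NPC peaks lay within 5 kb of 342 members (28.3%, 25.8 to 31.0), against 30.6% of shared peaks, and within 20 kb of 842 (69.8%, 67.1 to 72.3), against 71.8%. Over 50 kb from any NPC peak were 120 members (9.94%, 8.31 to 11.8), against 10.0% of shared peaks. Only at the far end did the share leave the interval: 20 members (1.66%, 1.02 to 2.55) were over 200 kb from an NPC peak, against 0.918%.

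The distance to the nearest shared site differed between the classes without an equal floor, and by less than its interval with one. A shared site is here any ESC peak that overlaps an NPC peak, whatever its score. It lay a median of 12255 bp (11205 to 13348) from members and 10743 bp from shared peaks. With sites within 1 kb left out for both classes, an alternative chosen after seeing the data, the medians were 12275 bp (11279 to 13397) and 12301 bp. The shorter distance of the shared peaks thus rested on sites within 1 kb, a range that the rule nearly closes to members.

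**Figure D2:**
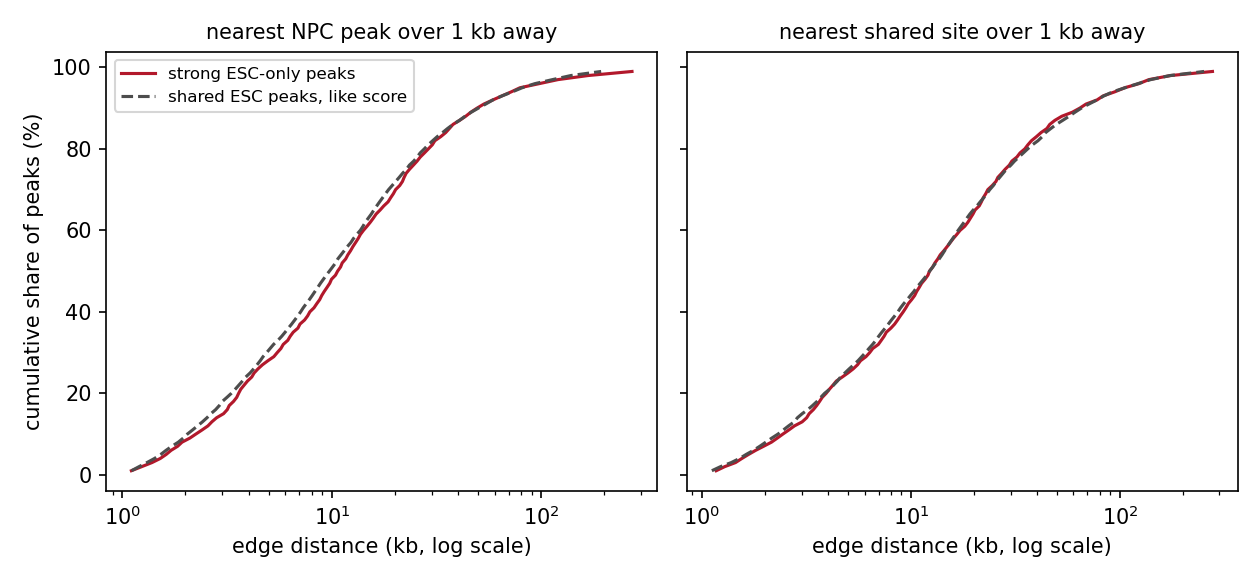
Cumulative share of peaks (%) by edge distance (kb, log scale) to the nearest NPC peak over 1 kb away (left) and to the nearest shared site over 1 kb away (right), for members (red line) and weighted shared peaks (dashed grey line). The lines run close together on both sides, with medians of 10652 and 9737 bp on the left and 12275 and 12301 bp on the right.

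The members farthest from NPC peaks formed a small set in sparse surroundings. The first lay on chromosome 17 (38699320 to 38699923, score 731), 800361 bp from the nearest NPC peak. The others were on chromosome 13 (66245480 to 66246010, score 845, 570230 bp), chromosome 8 (8147386 to 8147950, score 775, 499320 bp), chromosome 2 (15790881 to 15791591, score 985, 442352 bp) and chromosome 4 (37507086 to 37507650, score 707, 397711 bp). Of these 5, the chromosome 13 member had 1 other ESC peak within 50 kb and the other 4 had 0. On both sides of each, the next ESC peak along the chromosome was also without an NPC peak within 1 kb. The choice of these members largely sets that outcome. An adjacent ESC peak well inside the distance to the nearest NPC peak cannot have an NPC peak within 1 kb. The chromosome 4 member was 1270473 bp from the nearest shared site, so the NPC peak closest to it overlapped no ESC peak.

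The NPC peak next to a member was in most cases a site that ESC also had. The nearest NPC peak had itself no ESC peak within 1 kb for 175 members (14.5%, 12.6 to 16.6); for shared peaks, with the same floor, the share was 17.9%. Among the 342 members with an NPC peak within 5 kb it was 38 (11.1%, 7.98 to 14.9), against 16.8%. The nearest NPC peak of a member also ranked lower in its own list, at a median score percentile of 46.5 (44.8 to 48.7), against 52.3 next to shared peaks.

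Members clustered with each other and with weaker ESC-only peaks. Another member lay within 50 kb, centre to centre, of 208 members (17.2%, 15.1 to 19.5), whereas a member lay within 50 kb of 8.08% of shared peaks. Of the 5829 other ESC peaks found within 50 kb of members, 1819 (31.2%, 30.0 to 32.4) had no NPC peak within 1 kb, against 21.9% around shared peaks. This held for neighbours of either strength. Among neighbours above the ESC median, 10.7% (9.64 to 11.9) were themselves members, against 4.30% around shared peaks. Among weaker neighbours 54.2% (52.3 to 56.1) were ESC-only, against 41.9%. A neighbour very close to a member is less able to have an NPC peak because of the rule. With neighbours within 5 kb left out, an alternative chosen after seeing the data, the shares were 30.1% and 22.6%. Without chromosomes 5, 12 and 18, also chosen after seeing the data, another member lay within 50 kb of 13.4% of members and of 7.56% of shared peaks, and the ESC-only shares among neighbours were 28.1% and 21.3%.

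On average, members also had more ESC peaks around them, and the larger part of the surplus was ESC-only peaks. The mean number of other ESC peaks within 50 kb was 4.83 around members and 4.02 around shared peaks. Of these, 1.51 and 0.881 were ESC-only, and 3.32 and 3.14 were not. NPC peaks over 1 kb away had means of 3.75 around members and 3.65 around shared peaks. The medians were equal in the classes, at 4 for ESC peaks and 3 for NPC peaks. The higher ESC density depends on the rule: with no NPC peak allowed within 10 kb of a member it turned round, to 3.53 ESC peaks around members and 4.02 around shared peaks.

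Along the chromosome, 574 members (47.6%, 44.7 to 50.4) had no ESC-only peak on either side. A further 478 (39.6%, 36.8 to 42.4) had an ESC-only peak on 1 side, and 155 (12.8%, 11.0 to 14.9) on both. For shared peaks the same shares were 62.2%, 32.4% and 5.35%. No distance floor was set for these adjacent peaks. One that lies very close to a member is less able to have an NPC peak because of the rule.

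Shared sites near members ranked lower in NPC than in ESC. At 3269 sites that matched an NPC peak 1-to-1 within 50 kb of a member, the score percentile within the NPC list minus that within the ESC list had a median of -5.06 points (-6.13 to -4.10). At 1976 of them (60.4%, 58.7 to 62.1) the NPC percentile was the lower. Around shared peaks the median was -0.92 points and the share 52.4%. Near members each site was counted once, whereas around shared peaks a site was counted, with weights, for every shared peak near it. These sites were not part of the rule, although they come from the same 2 libraries.

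Both patterns were steepest close to the member and were still present up to 1000 kb away. Within 5 kb, 40.8% (36.7 to 44.9) of neighbouring ESC peaks were ESC-only, against 16.7% around shared peaks. The rule bears on this band, because it bars NPC peaks within 1 kb of a member while a shared peak overlaps one. From 5 to 10 kb the shares were 34.0% (30.4 to 37.8) and 21.6%. From 10 to 20 kb they were 29.7% (27.1 to 32.3) and 22.5%. From 50 to 100 kb they were 29.3% (28.0 to 30.5) and 23.7%, and from 500 to 1000 kb 26.1% (25.7 to 26.5) and 23.7%. The rank difference of shared sites went from -10.6 points (-13.4 to -7.77) within 5 kb to -4.69 (-5.38 to -4.06) from 50 to 100 kb and -2.96 (-3.20 to -2.71) from 500 to 1000 kb. Around shared peaks it stayed between -1.27 and -0.54 in the 8 distance bands. The bands pool all autosomes. The ESC-only share within 50 kb of shared peaks itself ran from 14.99% on chromosome 15 to 25.5% on chromosome 5. Whether the differences at long range hold within each chromosome was not tested.

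**Figure D3:**
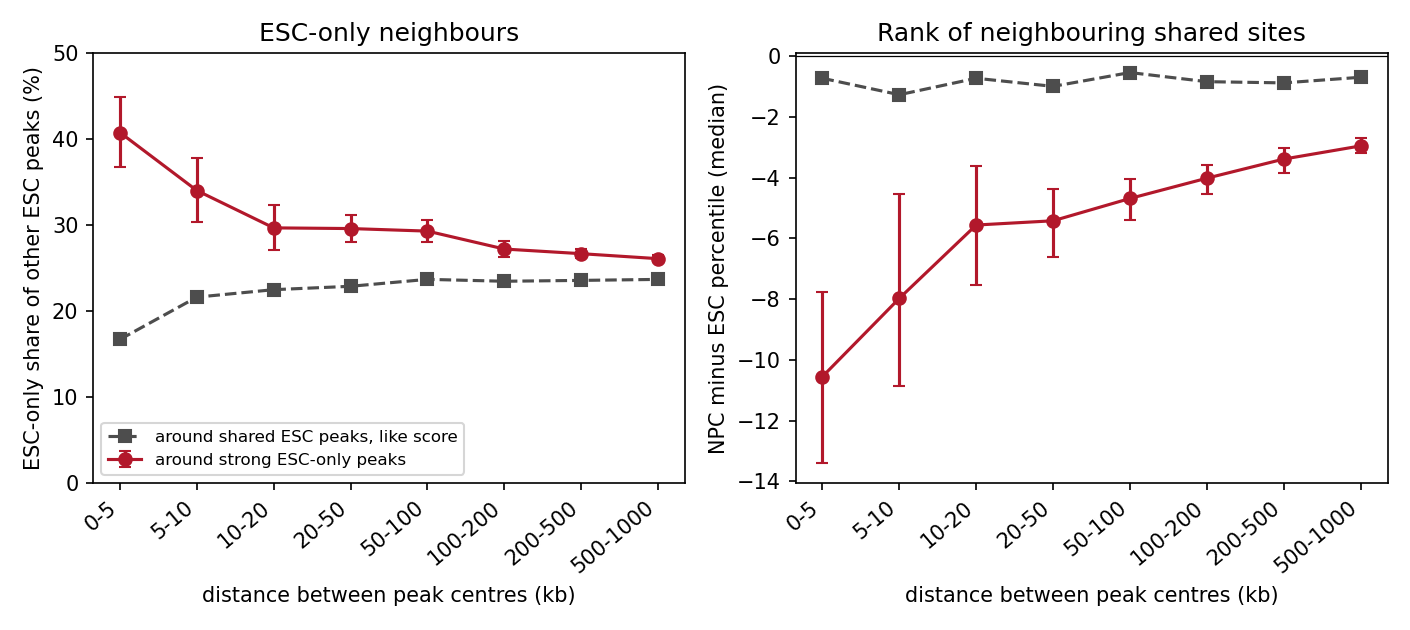
Left, share (%) of other ESC peaks that are ESC-only, and right, median NPC minus ESC score percentile at 1-to-1 shared sites, by distance between peak centres (kb) from members (red, bars are 95% intervals) and from weighted shared peaks (dashed grey). The red points fall from 40.8% to 26.1% on the left and move from -10.6 to -2.96 points on the right, while the grey points lie between 16.7% and 23.7% and between -1.27 and -0.54 points.

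The higher ESC-only share near members was seen on most autosomes. The ESC-only share among neighbours within 50 kb was higher around members than around shared peaks of the same chromosome on 18 of the 19 autosomes, and the member interval lay wholly above the shared value on 11. The exception was chromosome 15, where 11 of 88 neighbours (12.5%, 6.41 to 21.3) were ESC-only, against 14.99% around shared peaks. The rank difference at neighbouring shared sites was below 0 on the same 18 autosomes, with an interval wholly below 0 on 12. It was set against 0 here and not against shared peaks of the same chromosome, whose median over all autosomes was -0.92 points. Whether it differs from the rest of each chromosome was not tested. On chromosome 15 the rank difference was 9.05 points (3.17 to 14.05), and 22 of its 75 sites ranked lower in NPC. It was farthest below 0 on chromosome 18, at -14.4 (-20.3 to -6.00) over 87 sites, chromosome 12, at -13.1 (-19.7 to -6.37) over 136 sites, and chromosome 5, at -11.7 (-15.5 to -7.74) over 385 sites.

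The share of strong peaks that were members differed between autosomes. For each, the share expected from the scores of its strong peaks was 4.16% to 4.84%. Members made up 6.93% (5.46 to 8.65) of the 1039 strong peaks of chromosome 12 and 6.31% (5.28 to 7.46) of the 2014 of chromosome 5, both above that expectation. On chromosome 15 they made up 18 of 1124 (1.60%, 0.95 to 2.52) and on chromosome 13 27 of 1024 (2.64%, 1.74 to 3.81), both below it. The intervals of the other 15 autosomes held the expected share, including chromosome 18 with 5.99% (4.45 to 7.87) of 801. Chromosomes 12 and 15 kept their side in every other setting that included them. With no NPC peak allowed within 10 kb, and in the upper 25% of the ESC list, chromosomes 5 and 13 no longer stood outside, and chromosome 13 did not when only NPC peaks above the NPC median counted. Other autosomes came to lie above expectation in some settings. Chromosome 18 did in the upper 25% (2.75%, 1.38 to 4.87, expected 1.03%) and, against an expectation of 4.33%, without chromosomes 5 and 12. Chromosome 17 did when only NPC peaks above the NPC median counted (28.4%, 25.9 to 31.1, expected 25.5%).

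**Figure D4:**
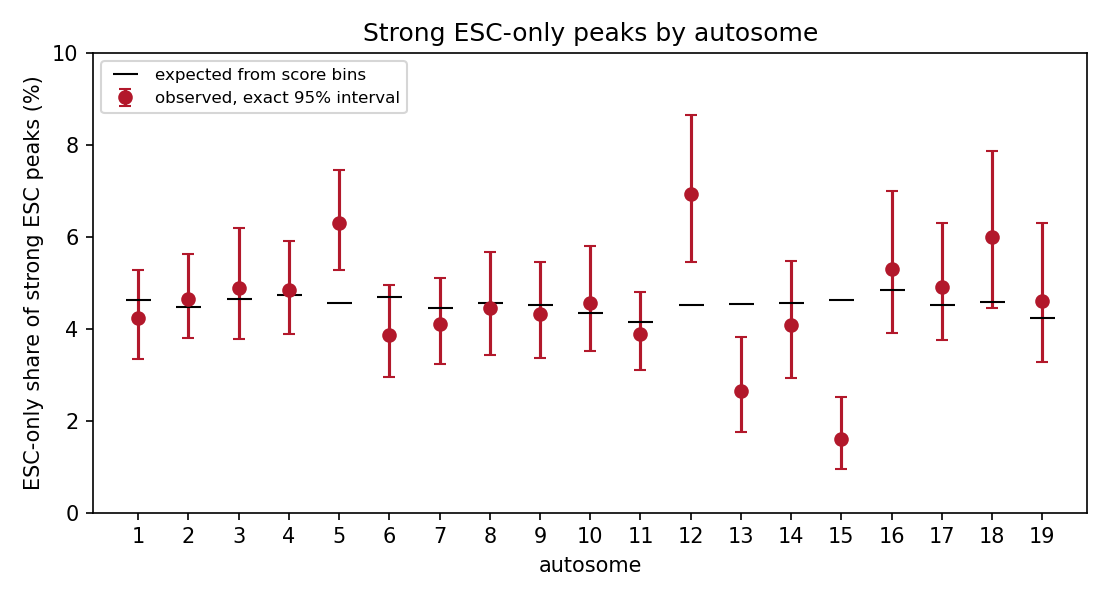
Members as a share (%) of autosomal ESC peaks above the median score, per autosome (red points, exact 95% intervals), with the share expected from score bins (black dashes). Chromosomes 5 and 12 lie above the dashes, at 6.31% and 6.93%, and chromosomes 13 and 15 below them, at 2.64% and 1.60%.

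Within the richest chromosomes the members were gathered in stretches. On chromosome 12 from 70 to 80 Mb, 25 of 132 strong peaks (18.9%, 12.6 to 26.7) were members, against 47 of 907 (5.18%, 3.83 to 6.83) on the rest of the chromosome. The adjoining segments were not poor in members, with 6 of 26 (23.1%, 8.97 to 43.6) from 60 to 70 Mb and 14 of 164 (8.54%, 4.75 to 13.9) from 80 to 90 Mb. On chromosome 5 from 110 Mb to the last peak, 92 of 1162 (7.92%, 6.43 to 9.62) were members, against 35 of 852 (4.11%, 2.88 to 5.67) nearer the centromere. On chromosome 18 from 37 to 38 Mb, 20 of 62 (32.3%, 20.9 to 45.3) were members, against 28 of 739 (3.79%, 2.53 to 5.43) elsewhere. Outside these stretches the intervals of the 3 chromosomes included 4.53%, the share over all autosomes. The stretches were chosen for their counts, so these values describe them and are no test. Other segments of 10 Mb held large shares too, among them chromosome 2 from 160 to 170 Mb with 29 of 266 (10.9%, 7.42 to 15.3).

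Position along the chromosome was close to that of other strong peaks. When each autosome was divided into 10 equal parts between its first and last peak, the last part, farthest from the centromere, held 197 members (16.3%, 14.3 to 18.5), against 14.6% of shared peaks. The first part held 75 (6.21%, 4.92 to 7.73), against 7.33%. Both shared values lay inside the member intervals. In the last part the excess of members left out 0 in 2 other settings, without chromosome 18 (2.20 percentage points, 0.081 to 4.49) and when only NPC peaks above the NPC median counted (1.65, 0.80 to 2.54), and it was -1.20 points in the upper 25% of the ESC list.

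Of 2244 windows of 1 Mb that held a strong ESC peak, 764 held a member and 96 held 3 or more, which together contained 381 members. The fullest were chromosome 18 from 37 to 38 Mb with 20 members and chromosome 5 from 148 to 149 Mb with 11 of 41 strong peaks. Chromosome 5 from 120 to 121 Mb (of 33 strong peaks), chromosome 2 from 164 to 165 Mb (of 42) and chromosome 5 from 149 to 150 Mb (of 46) had 7 members each.

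Tight groups were few. When members with centres at most 50 kb apart were joined, 999 stood alone and 208 formed 90 groups. Of these, 76 groups were pairs and 14 had 3 or more members, 56 members in all. Chromosome 5 had 4 of the 14 and chromosome 18 had 2. The groups described below were chosen for most members, and each span runs from its first to its last member. Members are ESC-only by the rule, so the ESC-only counts of the spans include them. The choice raises these counts, and they are no test.

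The largest group had 11 members over 129.3 kb of chromosome 18 (37839556 to 37968883). Their scores ran from 593 to 2057 with a median of 1272, and each was between 2020 and 21139 bp from the nearest NPC peak. The span held 22 ESC peaks, of which 15 were ESC-only and 17 scored above the median, and 7 NPC peaks, none of which was NPC-only. The members were interleaved with shared sites: all 7 NPC peaks matched an ESC peak 1-to-1, and 5 of these 7 sites ranked lower in NPC, with a median difference of -10.3 points. The strongest members of the group lay at 37890192 to 37890828 (score 2057), 37839556 to 37840282 (score 1860) and 37879653 to 37880321 (score 1549).

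The second group lay on the same chromosome at 37594879 to 37673595. It had 6 members over 78.7 kb with scores from 693 to 1161. Of its 17 ESC peaks 13 were ESC-only, and all 4 of its 1-to-1 sites ranked lower in NPC, with a median difference of -72.9 points. Both groups fall in the window from 37 to 38 Mb. The clustered protocadherin genes lie on mouse chromosome 18, but these peaks were not assigned to genes.

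**Figure D5:**
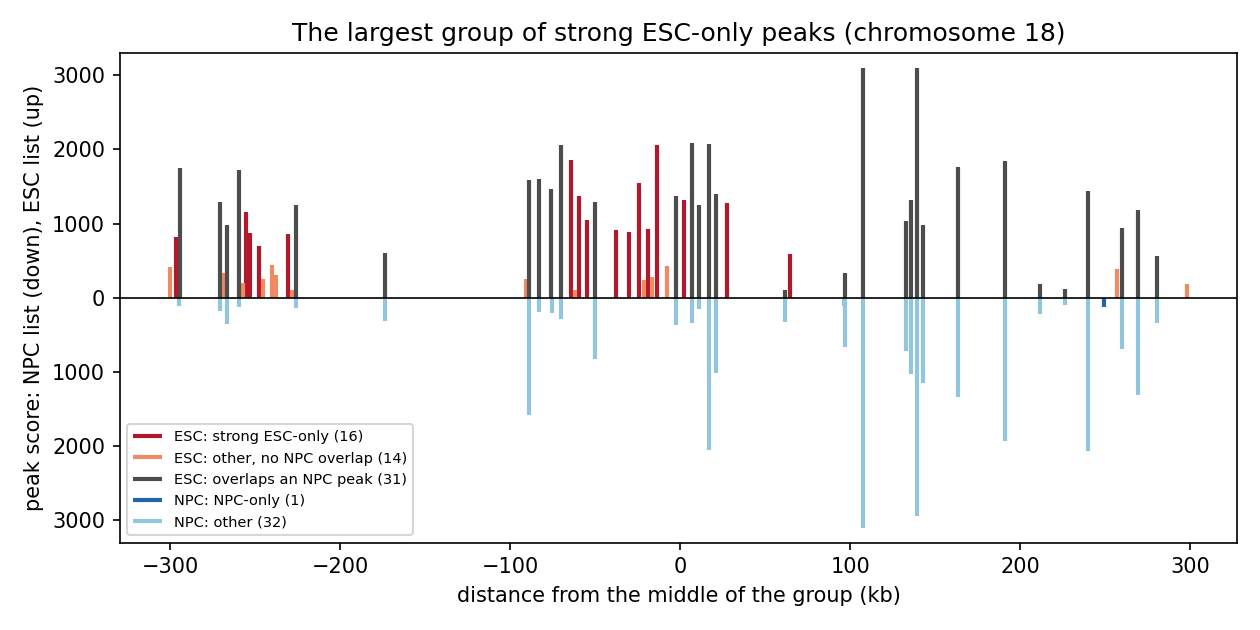
Peak scores in the ESC list (bars up) and the NPC list (bars down) by distance (kb) from the middle of the largest group, out to 300 kb on each side. The 16 members in view (red) stand among 31 ESC peaks that overlap an NPC peak (dark grey) and 14 weak or nearby ESC peaks without overlap (orange), with 1 NPC-only peak (dark blue) and 32 other NPC peaks (light blue) below; the members at the far left belong to the second group of the chromosome.

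The third group had 6 members within 38.7 kb of chromosome 5 (120151064 to 120189812), with scores from 540 to 777. Of the 8 ESC peaks there 6 were ESC-only, which are the members themselves, and 1 NPC peak lay in the span. Its first 5 members lay between 120151064 and 120161270, with widths from 524 to 699 bp. Another 11 groups had 3 members each, and those with the highest summed scores among them are given next. The fourth lay on chromosome 12 (77477414 to 77519864), led by a peak at 77477414 to 77478195 with a score of 1819. All 5 ESC peaks of its 42.5 kb were ESC-only and it held 0 NPC peaks. The fifth, with 3 members, lay on chromosome 16 (94018099 to 94076363), where the strongest scored 1509 and 5 of 8 ESC peaks were ESC-only.

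The highest-scoring member of each autosome shows that strong members were not always in such groups. Over the 19 autosomes these scored from 1119 on chromosome 13 to 2801 on chromosome 18, with a median of 1520. They lay from 1733 to 49029 bp from the nearest NPC peak, with a median of 7734 bp. Of the 19, 6 had another member within 50 kb, a state found in 17.2% of all members. An ESC-only peak was next to 10 of the 19. Among all members, 39.6% had one on 1 side and 12.8% on both. The chromosome 18 peak (37089402 to 37090814) was among the 20 members of the window from 37 to 38 Mb, but had no other member within 50 kb. Of the 12 other ESC peaks within 50 kb of it, 1 was ESC-only. The chromosome 12 peak (18141938 to 18142644, score 2591, rank 514 of the ESC list) had 3 ESC neighbours, of which 2 were ESC-only. On chromosome 1 the strongest member (74795368 to 74795860, score 1351) had 7 ESC neighbours and none was ESC-only, and on chromosome 9 (37352120 to 37352775, score 1520) 4 of 7 were. The strongest member of chromosome 19 (16203093 to 16204222, score 1273) was 1130 bp wide and had 0 other ESC peaks within 50 kb.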

How the data were processed

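CTCF chromatin immunoprecipitation was followed by SOLiD sequencing in 1 ESC and 1 NPC library, per the labels' protocols. The authors deposited 1 list of MACS peaks per library, per the file headers, with a score per peak. Both track names end in CONTROL, a word that no source explains; the lists were taken as CTCF peaks from their labels. Per the submitters' processing notes the build is mm9. Which MACS version, threshold, aligner and control were used is not stated in those sources. Numbering of ESC peaks reaches 54157, and 6 of the numbers do not occur in the list as read.

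Edge gaps, overlaps of at least 1 bp and neighbours within 50 kb (centre to centre) were computed in Python 3.11.15 with numpy 2.4.6, pandas 2.3.3 and scipy 1.17.1, and plots were drawn with matplotlib 3.10.9. Shares have exact Clopper-Pearson intervals and medians have order-statistic intervals, both at 95%, and shared peaks were weighted over 10 score bins. The steps were tested on simulated data. The members and lists were chosen with earlier results of these data known. Regions named are the highest-scoring member of each autosome, the 5 farthest from NPC peaks, the 5 groups with most members (ties broken by summed score), the 3 widest, 3 narrowest, and those at each limit of the rule; the 1 Mb windows, 10 Mb segments and stretches were chosen after their values were seen.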

Additional observations from a re-analysis of the deposited data

Results flagged for a closer look

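Chromosome X lies outside the rule for the members. It held 24 strong ESC peaks with no NPC peak within 1 kb, of 407 ESC peaks there above the median score (5.90%, exact 95% interval 3.81 to 8.65), an interval that includes the 4.53% of the autosomes. These were not used in any comparison.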

How the results depend on the processing

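Each cell type had 1 library, so leaving out a library was not possible. No paired analysis was possible because each group has 1 sample. Over 15 other settings, 75 of 117 values stayed inside the original interval or, for counts, within 1.5 times. Among the rest, 40 moved and 2 changed the sign of a difference whose original interval left out 0. These were shared-site distance, to -26 bp (-1022 to 1096, an interval that holds 0), and ESC density, to -0.48 peaks (-0.63 to -0.34). Differences in this section are members minus shared peaks. Differences whose original interval held 0 also changed sign, for width (from -1 to 2 bp with 50% reciprocal overlap) and for position (below). Width moved past its interval without weighting alone, to -57 bp. The members numbered 624 with no NPC peak within 10 kb, 134 in the upper 25% of the ESC list, and 6867 against NPC peaks above the NPC median. Members with another member nearby differed by 5.75, 4.24 and 5.43 percentage points with 5 kb, 10 kb and the upper 25%, by 6.44 and 11.9 in neighbourhoods of 20 and 100 kb, and by 5.88 without chromosomes 5, 12 and 18 (chosen after seeing the data). The ESC-only share of neighbours differed by 11.6, 14.5 and 18.9 points with 5 kb, 10 kb and the upper 25%, by 10.7 against strong NPC peaks and by 7.998 without chromosome 18. It differed by 12.8 and 7.55 at 20 and 100 kb, and by 7.53 with neighbours over 5 kb away and 6.80 without chromosomes 5, 12 and 18, both chosen after seeing the data. Every one of these differences had the same sign as the original 9.15 and 9.28. The distance to an NPC peak differed by 2658.5 bp with 10 kb. That to a shared site differed by 178 bp with overlap alone barred, by 8309 and 14707 bp with 5 and 10 kb (settings whose rule itself moves members away), by 2860 bp without weighting and by -26 bp with sites within 1 kb left out, chosen after seeing the data. The rank difference was -5.21, -5.25 and -7.31 points with 5 kb, 10 kb and the upper 25%, and -5.60 at 20 kb. Autosomes outside their expected share numbered 2 with 10 kb and 2 without chromosomes 5, 12 and 18. The share in the last part of the chromosome differed by -1.20 points in the upper 25%, from 1.73. ESC density differed by 0.982 peaks with overlap alone barred, 0.115 and -0.48 with 5 and 10 kb, 1.44 in the upper 25%, 0.27 against strong NPC peaks, 0.537 without weighting, 0.656 without chromosome 18, 0.274 and 1.51 at 20 and 100 kb, and 0.557 without chromosomes 5, 12 and 18. The cause of these moves was not tested.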
